A study of Homo sapiens with 36 samples.

Results

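The DNA replication machinery was described as 52 genes that act from the marking of replication origins to the packaging of new DNA. They were selected by symbol: a row of the deposited table was a member when its Ensembl identifier carried, in GENCODE release 44, the symbol of a licensing factor, a subunit of the replicative helicase, a replicative polymerase, the sliding clamp and its loader, or a protein that works beside them. Each of the 52 symbols matched 1 of the 29872 genes listed, and all 52 passed the filter on low values, the lowest member value in any library being 44.4 normalised counts for POLE2. The members were grouped by 11 steps of replication. The rule used no measured values, but the members were chosen with earlier results of these data known.

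LNCaP cells, a human line established from prostate cancer and of luminal type, were grown in plates and treated for 24 h or 72 h. At each time point there were 6 groups of 3 biological replicates: vehicle, AU2-94 at 1 µM, AU2-94 at 2 µM, atirmociclib at 1 µM, atirmociclib at 2 µM and ribociclib at 2 µM, which gave 12 groups and 36 libraries of total RNA. AU2-94 and atirmociclib are inhibitors directed at CDK4, and ribociclib inhibits CDK4 and CDK6. The labels also list 2 µM for vehicle, which was read here as untreated control. All groups come from a single cell line without any engineered allele, and wells for 72 h were seeded more thinly than wells for 24 h, so time and seeding density cannot be told apart.

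Replication is prepared in G1, when the origin recognition complex, CDC6 and CDT1 load the ring of MCM2 to MCM7 onto DNA, and geminin blocks CDT1 once S phase has begun. The kinase of CDC7 and DBF4 and several firing factors then join CDC45 and the GINS complex to the MCM ring to form the active helicase, after which primase and the polymerases copy both strands, held to the template by PCNA. CDK4 and CDK6 phosphorylate the retinoblastoma protein, which otherwise restrains E2F transcription factors, and many genes of the replication machinery are known targets of E2F. In proliferating prostate cancer cells these transcripts are abundant while cells cycle.

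The libraries totalled 20675156 to 22692555 normalised counts, and replicates of a group correlated across genes at 0.986 to 0.989. The luminal markers KLK3, KLK2, TMPRSS2, FOLH1 and HOXB13 were all present, the lowest being KLK2 at 2239 normalised counts. Of the 13 markers of basal, stromal, endothelial and blood cells, TP63, KRT5, COL1A2, DCN, PECAM1, CDH5, PTPRC and CD3E stayed at or below 7.09 in every library, whereas COL1A1, VWF, CD68, KRT14 and PDGFRB were detected. Some values moved with treatment: KLK3 held 19802 to 24802 normalised counts in the vehicle libraries and 27660.1 to 55194 in the treated libraries, the 3 basal markers summed to 4.35 to 25.2 and 23.1 to 88.6, and mitochondrial genes took up to 7.42% of counts in vehicle and up to 8.66% under atirmociclib at 2 µM for 72 h. The stromal sum ran from 399 to 653 in vehicle and from 204 to 687 under treatment, the endothelial sum from 185 to 395 and from 216 to 713, and the sum for blood cells from 42.8 to 144 and from 34.9 to 141. The part of these shifts in the results was not tested. In bulk RNA, a smaller share of cells in S phase and less of a transcript in each cell cannot be told apart.

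Most of the replication genes fell against the vehicle of the same time point in every treatment, further at 24 h than at 72 h and furthest with atirmociclib. The 52 members summed to 77003 to 79735 normalised counts in the 3 vehicle libraries at 24 h and to 36853 to 54481 in the treated libraries, without overlap. At 72 h the sums were 77335 to 79220 in vehicle and 47844 to 62673 in treated libraries, again without overlap. Among treated groups the lowest sums at both times were those of atirmociclib, at 36853 to 37981 and 47844 to 50073. AU2-94 at 1 µM gave the highest sums at 24 h, from 52391 to 54481, and AU2-94 at 2 µM those at 72 h, from 58973 to 62673.

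A member was called lower or higher when limma's adjusted p, corrected over all genes tested, was at most 0.05. At 24 h, AU2-94 at 1 µM lowered 39 of 52 members, where 13.5% of all genes tested were lower, and raised 0, where 14.3% were higher. AU2-94 at 2 µM lowered 42 (background 14.9%) and raised 0 (16%). Atirmociclib lowered 45 at 1 µM (15.4%) and 46 at 2 µM (16.2%), and raised 0 (16.6%) and 1 (18.6%). Ribociclib lowered 42 (15.2%) and raised 2 (16.8%). The median log2 fold change of the members was -0.70, -0.98, -1.35, -1.43 and -0.98 in that order, beside medians between -0.00323 and 0.00495 over all genes tested. Falls past 1 log2 unit, that is, to below 50% of vehicle, were called for 10 members with AU2-94 at 1 µM (background 2.4%), 25 at 2 µM (2.94%), 34 and 35 with atirmociclib at 1 and 2 µM (4.22% and 4.82%) and 26 with ribociclib (3.66%).

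At 72 h the falls were shallower. AU2-94 lowered 39 members at 1 µM (background 17%) and 33 at 2 µM (15.3%), and raised 0 (15.4%) and 0 (14.2%). Atirmociclib lowered 44 at 1 µM (19.8%) and 42 at 2 µM (19.6%), and raised 0 (20%) and 1 (20.9%). Ribociclib lowered 37 (15.4%) and raised 1 (15.5%). Median log2 fold changes were -0.49 and -0.38 with AU2-94 at 1 and 2 µM, -0.81 and -0.87 with atirmociclib, and -0.54 with ribociclib, beside medians between -0.00828 and 0.00594 over all genes tested. Past 1 log2 unit, AU2-94 had 1 member at 1 µM (background 0.869%) and 1 at 2 µM (0.838%), CDC45 in both cases, which became 2 without AU2-94 1 µM replicate 3 and 0 without AU2-94 2 µM replicate 2. Atirmociclib had 15 and 20 (2.67% and 3.67%), and ribociclib 3 (1.54%).

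Of the 52 members, 36 were called lower in each of the 5 treatments at 24 h (background 7.82%), 30 in each at 72 h (8.59%) and 28 in all 10 comparisons (3.91%). These comparisons share the vehicle libraries of their time point and so are not independent. The 8 genes lowered by every treatment at 24 h and no longer by every treatment at 72 h were ORC6, GMNN, MCM3, TOPBP1, POLD1, POLD3, POLE and LIG1, while CDC6 and GINS3 were lowered by every treatment at 72 h only. Most lower calls remained when single libraries were left out. Each of the 6 libraries of a comparison was left out in turn. At 24 h 36 of 39, 40 of 42, 44 of 45, 44 of 46 and 41 of 42 lower calls remained every time. At 72 h 30 of 39, 28 of 33, 40 of 44, 42 of 42 and 33 of 37 remained. Lost at 24 h were POLE2, RFC1 and RPA3 with AU2-94 at 1 µM and TIPIN and POLE2 at 2 µM. With atirmociclib GINS4 was lost at 1 µM and TIPIN and PRIM2 at 2 µM, and with ribociclib TIPIN. At 72 h AU2-94 at 1 µM lost ORC6, MCM3, GINS1, TOPBP1, PRIM1, POLD2, POLD3, RFC3 and RPA1. AU2-94 at 2 µM lost CDC7, DBF4, PRIM1, RPA2 and RPA3. Atirmociclib at 1 µM lost TOPBP1, POLD2, RFC3 and RPA1, and ribociclib MCM3, DBF4, TIPIN and RFC3. None of the 5 higher calls (POLD2 with atirmociclib at 2 µM and ORC4 and ORC5 with ribociclib at 24 h, GINS4 with atirmociclib at 2 µM and PRIM2 with ribociclib at 72 h) survived every such omission. Omissions also added higher calls at 24 h: 1 with AU2-94 at 1 µM without its replicate 1 or vehicle replicate 2, 1 with AU2-94 at 2 µM without vehicle replicate 1 or 2, 1 with atirmociclib at 1 µM without vehicle replicate 2 and 2 with atirmociclib at 2 µM without vehicle replicate 1. The labels give the replicate number as a batch, and within single replicate numbers the median log2 fold change of the members at 24 h ran from -0.76 to -0.55 with AU2-94 at 1 µM, which had the shallowest median, and from -1.48 to -1.21 with atirmociclib at 2 µM, which had the deepest, and at 72 h from -0.44 to -0.32 with AU2-94 at 2 µM and from -0.90 to -0.78 with atirmociclib at 2 µM.

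**Figure D1:**
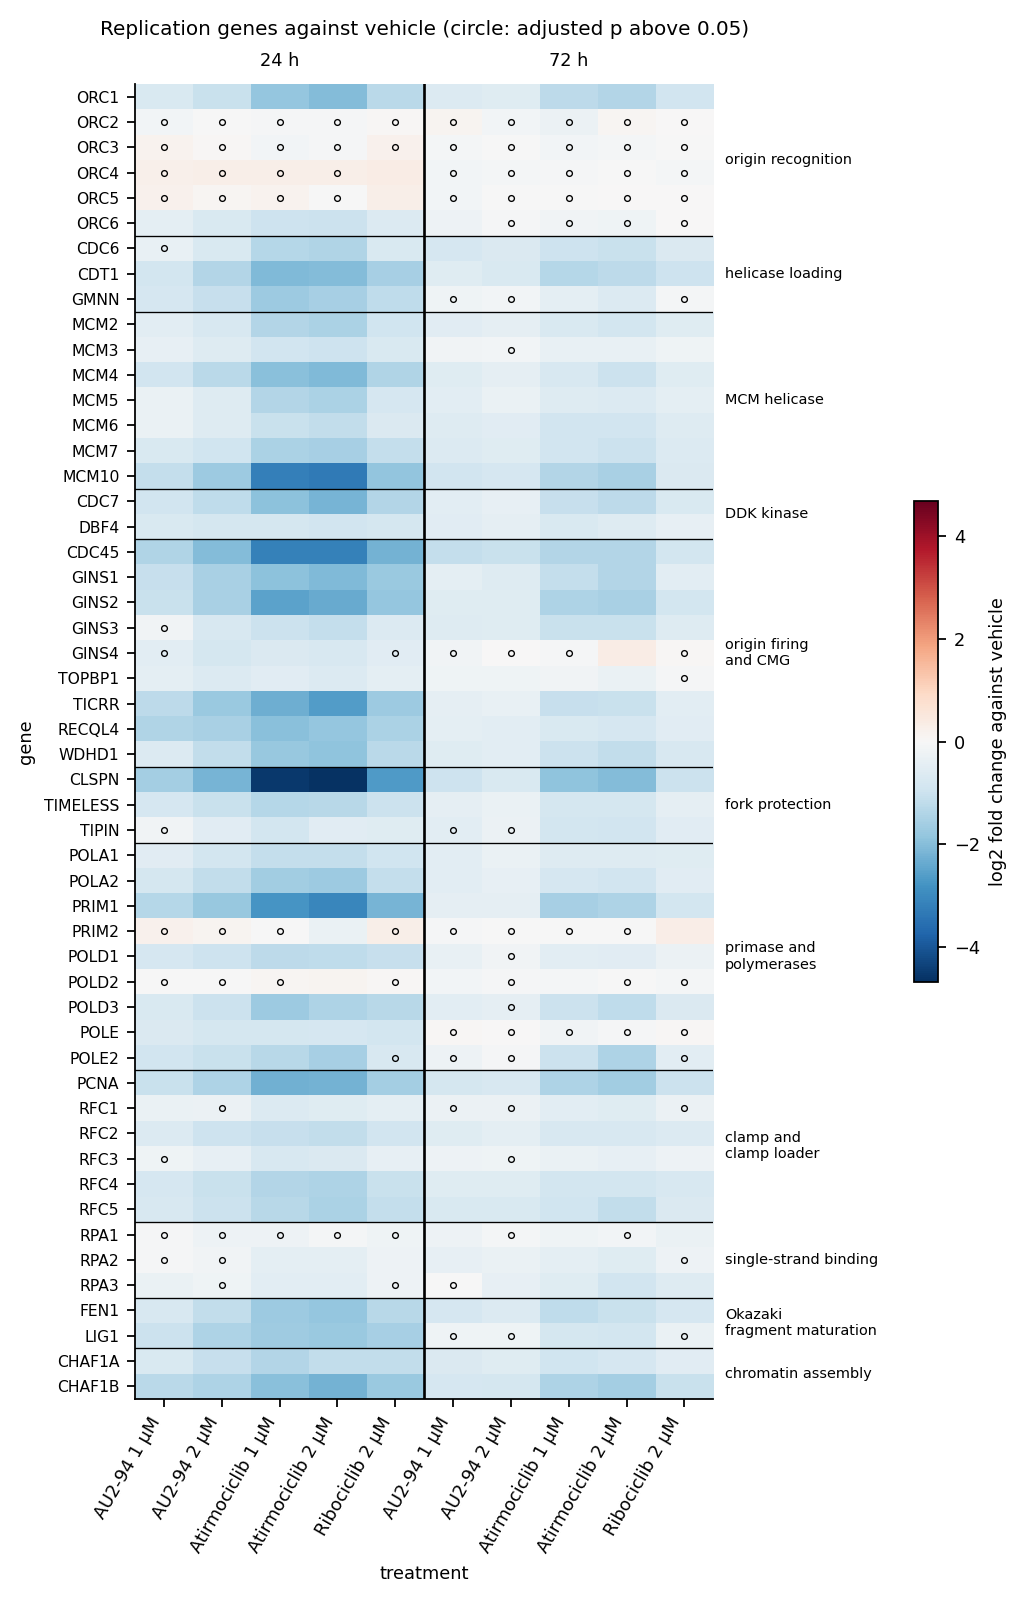
Log2 fold change of the 52 replication genes (rows, grouped by step) against vehicle in the 5 treatments at 24 h and 72 h (columns); blue is lower and red higher, and an open circle marks an adjusted p above 0.05. ORC2 to ORC5, PRIM2, POLD2 and RPA1 stay pale, whereas CLSPN, MCM10, CDC45 and PRIM1 are darkest under atirmociclib at 24 h.

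Since the members moved together and E2F is known to act on this gene class, promoter sequence was searched. RefSeq promoters (GRCh38.p14, 250 bases before to 50 after the gene start) were matched for 45 of the 52 members; MCM4, MCM5, GINS4, RECQL4, POLD3, RPA2 and RPA3 were not matched. The start was that of the canonical transcript in 40 of the 45 windows, all but ORC4, PRIM2, TIPIN, POLD1 and PCNA. The letters TTTCGCGC or TTTGGCGC, on either strand, stood in 11 of the 45 windows (24.4%) and in 322 of all 27305 promoters (1.18%). The 27305 promoters were not matched to the members for expression or base composition. The 11 genes comprised the 4 MCM ring subunits that had a window (MCM2, MCM3, MCM6 and MCM7), the loader CDC6, the GINS subunit GINS1, the firing factor TOPBP1 and 4 polymerase subunits. Their sites are shown with 9 bases on either side, on the strand of the gene, 5′ to 3′, with the matched letters in capitals, because this element stood in a larger share of the members than of all promoters. A run of 12 capitals holds 2 overlapping matches, one on each strand.
MCM2, chr3:127598404-127598433, + strand: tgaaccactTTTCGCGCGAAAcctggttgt
MCM3, chr6:52284730-52284755, - strand: ttcggaagtTTTCGCGCcggggtgga
MCM6, chr2:135876513-135876542, - strand: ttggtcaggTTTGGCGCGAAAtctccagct
MCM6, chr2:135876575-135876604, - strand: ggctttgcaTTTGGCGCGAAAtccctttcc
MCM7, chr7:100101390-100101415, - strand: ggggcgacgTTTCGCGCcaatttcgg
CDC6, chr17:40287877-40287902, + strand: ccattcggaTTTGGCGCgagcgcggc
GINS1, chr20:25407669-25407694, + strand: ctttgttcgGCGCCAAAgcgcggagc
TOPBP1, chr3:133661932-133661957, - strand: gcgcggttgGCGCGAAAgtcggttcc
POLA1, chrX:24693772-24693797, + strand: catcacaggGCGCCAAAcgcgcgtcc
POLA2, chr11:65261900-65261925, + strand: ggctcccggTTTCGCGCatgcgtgca
POLE, chr12:132687344-132687369, - strand: ggtgggagcGCGCCAAAtttctcccc
POLE2, chr14:49688203-49688228, - strand: gcggcggtgGCGCCAAAtcgcaaata

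These matches are exact letters in a window, not evidence of binding, and other forms of an E2F site were not counted. The log2 fold change at 24 h was averaged over the 5 treatments. Its median was -0.90 over the 11 genes with a match and -1.11 over the 34 without. CLSPN, MCM10, CDC45 and PRIM1, with the largest mean falls, had no such match in this window. A genes-without set made this way can hold genes with other forms of the site. Whether a match goes with the size of the fall was not tested. A shorter core, TTCGCGC or TTGGCGC, stood in 18 members (40.0%) and 5.18% of all promoters. CCAAT, the letters bound by the factor NF-Y, stood in 25 members (55.6%) and 35.7% of promoters, and TTTGAA, the cell-cycle homology region of late cell-cycle genes, in 1 member, DBF4 (2.22%), and 15.4%. In MCM7 the E2F letters and a CCAAT box share a base. The 200 bases before the gene start are printed for MCM6, which has E2F letters at 2 places, for CLSPN, MCM10 and TICRR, which fell far without them, and for ORC2, which was not called in any treatment. Capitals mark E2F letters (runs of 12) and CCAAT or its reverse complement ATTGG (runs of 5).
MCM6, chr2:135876444-135876643, - strand: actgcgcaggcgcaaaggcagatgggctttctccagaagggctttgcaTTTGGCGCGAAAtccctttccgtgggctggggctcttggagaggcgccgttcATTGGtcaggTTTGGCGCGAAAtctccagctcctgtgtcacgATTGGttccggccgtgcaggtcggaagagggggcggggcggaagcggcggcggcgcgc
CLSPN, chr1:35769979-35770178, - strand: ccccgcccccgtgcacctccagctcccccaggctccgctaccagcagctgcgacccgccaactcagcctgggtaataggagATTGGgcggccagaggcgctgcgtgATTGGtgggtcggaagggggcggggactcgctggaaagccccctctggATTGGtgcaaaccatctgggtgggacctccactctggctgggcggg
MCM10, chr10:13161358-13161557, + strand: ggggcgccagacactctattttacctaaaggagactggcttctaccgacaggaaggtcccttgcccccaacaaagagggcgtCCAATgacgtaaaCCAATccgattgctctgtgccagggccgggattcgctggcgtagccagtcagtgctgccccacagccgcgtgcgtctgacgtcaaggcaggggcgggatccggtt
TICRR, chr15:89575269-89575468, + strand: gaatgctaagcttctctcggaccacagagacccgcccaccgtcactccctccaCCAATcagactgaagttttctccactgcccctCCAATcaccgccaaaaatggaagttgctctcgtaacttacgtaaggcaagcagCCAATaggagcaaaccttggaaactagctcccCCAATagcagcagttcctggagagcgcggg
ORC2, chr2:200963661-200963860, - strand: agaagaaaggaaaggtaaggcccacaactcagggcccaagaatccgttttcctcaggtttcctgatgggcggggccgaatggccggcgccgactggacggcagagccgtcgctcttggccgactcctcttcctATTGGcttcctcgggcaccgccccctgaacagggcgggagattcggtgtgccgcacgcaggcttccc

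In the origin recognition complex, ORC1 and ORC6 moved apart from the other 4 subunits. ORC1, the subunit whose level is known to change through the cell cycle, fell in all 5 treatments at both times, ORC6 fell in all 5 at 24 h, and ORC2 to ORC5 were called lower in none. At 24 h ORC1 held 553, 506 and 513 in vehicle, 328, 278 and 347 in AU2-94 at 1 µM, 247, 248 and 257 in AU2-94 at 2 µM, 142, 166 and 138 in atirmociclib at 1 µM, 126, 117 and 139.9 in atirmociclib at 2 µM and 202, 230.0 and 213 in ribociclib at 2 µM normalised counts. At 72 h ORC1 held 587, 557 and 604 in vehicle, 406, 355 and 363 in AU2-94 at 1 µM, 451, 366 and 357 in AU2-94 at 2 µM, 243, 246 and 261 in atirmociclib at 1 µM, 224, 222 and 229.7 in atirmociclib at 2 µM and 309, 302 and 317 in ribociclib at 2 µM. Every treated library lay below every vehicle library at both times, and atirmociclib at 2 µM was lowest at each. The log2 fold change ran from -2.03 to -0.73 at 24 h (standard error 0.11, limma, adjusted p 4.78e-11 to 6.41e-05), that is, 1.65-fold to 4.08-fold lower, and from -1.37 to -0.58 at 72 h. ORC6 ran from -1.01 to -0.45 at 24 h and -0.25 to 0.00 at 72 h, where only AU2-94 at 1 µM passed the test, a call lost without its replicate 1 or 2 or vehicle replicate 3.

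ORC2 ran from -0.13 to 0.05 at 24 h and -0.29 to 0.14 at 72 h, while ORC3 ran from -0.14 to 0.21 and from -0.12 to -0.00, with the libraries of every treatment overlapping vehicle. ORC4 stood at 0.24 to 0.33 at 24 h and ORC5 at -0.02 to 0.29. With ribociclib ORC4 rose by 0.33 and ORC5 by 0.29 on the log2 scale. The ORC4 call was lost without ribociclib replicate 1 (adjusted p = 0.0872), ribociclib replicate 2 (0.116), vehicle replicate 2 (0.198) or vehicle replicate 3 (0.0554), and the ORC5 call without vehicle replicate 1 (0.0916) or 3 (0.0834). At 72 h ORC4 ran from -0.14 to -0.03 and ORC5 from -0.12 to 0.02, with no call. The standard error of ORC2 was 0.19 log2 units at 24 h, among the widest of the members, which limits what could be detected.

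All 3 genes of helicase loading fell. CDT1, which brings the MCM ring to DNA and is destroyed in S phase, fell in every treatment at both times. At 24 h CDT1 read 1288, 1236 and 1266 in vehicle, 696, 719.8 and 654 in AU2-94 at 1 µM, 424, 487 and 554 in AU2-94 at 2 µM, 389, 287 and 243 in atirmociclib at 1 µM, 295, 298 and 338 in atirmociclib at 2 µM and 405, 379.7 and 520.0 in ribociclib at 2 µM. At 72 h CDT1 read 1243, 1348 and 1292 in vehicle, 841, 820.0 and 997 in AU2-94 at 1 µM, 820.2, 785 and 754 in AU2-94 at 2 µM, 515, 553 and 467 in atirmociclib at 1 µM, 534, 462 and 679.9 in atirmociclib at 2 µM and 691, 612 and 673 in ribociclib at 2 µM. Its 24 h falls ran from 1.83-fold with AU2-94 at 1 µM to 4.2-fold with atirmociclib at 1 µM, and those at 72 h from 1.47-fold to 2.53-fold, with no overlap with vehicle. GMNN encodes geminin, the inhibitor of CDT1, and fell in all 5 treatments at 24 h but only under atirmociclib at 72 h. At 24 h GMNN held 838, 809.6 and 833 in vehicle, 480.3, 455 and 493 in AU2-94 at 1 µM, 364, 347 and 475 in AU2-94 at 2 µM, 235, 254 and 273 in atirmociclib at 1 µM, 263, 284 and 302 in atirmociclib at 2 µM and 378, 349 and 349.7 in ribociclib at 2 µM. At 72 h GMNN held 765, 732 and 705 in vehicle, 598, 606 and 726 in AU2-94 at 1 µM, 688, 576 and 735 in AU2-94 at 2 µM, 541, 523 and 532 in atirmociclib at 1 µM, 452, 459.7 and 508 in atirmociclib at 2 µM and 736, 679 and 662 in ribociclib at 2 µM. The 72 h libraries of AU2-94 at both doses and of ribociclib overlapped vehicle, with log2 fold changes of -0.19, -0.15 and -0.08, while atirmociclib lowered GMNN by 0.46 and 0.63. Without AU2-94 1 µM replicate 3 its 72 h value of -0.28 passed the test (limma, adjusted p = 0.0337). CDC6, the loading ATPase, fell in 4 of 5 treatments at 24 h, from -0.70 with ribociclib to -1.41 with atirmociclib at 2 µM, and stood at -0.33 with AU2-94 at 1 µM. At 72 h it fell in all 5, from -0.69 to -1.05.

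The MCM ring fell as a whole. MCM2 to MCM7, the 6 subunits of the ring that unwinds DNA, were called lower in all 5 treatments at 24 h, and at 72 h all did so again except MCM3 with AU2-94 at 2 µM (-0.14). The 72 h calls of MCM3 with AU2-94 at 1 µM and with ribociclib were lost without 4 and 3 of the 6 libraries in turn. At 24 h the deepest was MCM4, from -2.07 to -0.91, followed by MCM7 (-1.58 to -0.72). MCM2 (-1.50 to -0.49), MCM5 (-1.48 to -0.32), MCM6 (-1.15 to -0.30) and MCM3 (-0.99 to -0.37) fell less, and MCM3, MCM5 or MCM6 was the shallowest in each treatment. At 72 h the 6 ran from -1.01 to -0.14. Per kilobase of merged exons, vehicle at 24 h held 978 ± 4.55 normalised counts of MCM7 (SD, n = 3), 716 ± 17.3 of MCM2, 688 ± 11.4 of MCM3, 534 ± 43.4 of MCM4, 439 ± 15.3 of MCM6 and 291 ± 17.6 of MCM5. With the length of the canonical transcript MCM7 stayed highest at 1967 ± 9.14, but MCM4 came next at 1296 ± 105 and MCM6 last at 483 ± 16.9, so only the place of MCM7 did not hang on the length used. Exons of an antisense gene cover 23.6% of the exon bases of MCM2, and since the strand setting of the counts was not given, its reads cannot be separated.

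MCM10, a scaffold that is needed for the ring to become an active helicase, fell further than any ring subunit in all 10 comparisons. The gene lies on chromosome 10 from 13161558 to 13211110 (GRCh38, GENCODE 44). At 24 h MCM10 read 1244, 1257 and 1569.9 in vehicle, 619, 649 and 602 in AU2-94 at 1 µM, 329.8, 417 and 503 in AU2-94 at 2 µM, 151, 131 and 150.0 in atirmociclib at 1 µM, 126, 125 and 147 in atirmociclib at 2 µM and 388, 352 and 381 in ribociclib at 2 µM. At 72 h MCM10 read 1168, 1453 and 1425 in vehicle, 728, 759 and 695 in AU2-94 at 1 µM, 809, 761 and 764 in AU2-94 at 2 µM, 405, 491 and 678 in atirmociclib at 1 µM, 487, 469.5 and 444 in atirmociclib at 2 µM and 657, 915 and 959.6 in ribociclib at 2 µM. The 6 atirmociclib libraries at 24 h lay below all other treated libraries, and no treated library reached vehicle at either time. At 24 h the fall was 2.16-fold and 3.28-fold with AU2-94 at 1 and 2 µM, 9.31-fold and 10.1-fold with atirmociclib, and 3.6-fold with ribociclib (standard error 0.13 log2 units, limma, adjusted p 5.03e-13 to 3.75e-06). At 72 h it was 1.61-fold with ribociclib to 2.87-fold with atirmociclib at 2 µM (adjusted p 1.61e-07 to 0.00172).

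CDC7 encodes the kinase that phosphorylates the MCM ring, and DBF4 its regulatory partner; both fell in every treatment at both times. At 24 h CDC7 held 849.6, 839 and 743 in vehicle, 397, 454 and 468 in AU2-94 at 1 µM, 321, 325 and 421 in AU2-94 at 2 µM, 177, 226 and 237 in atirmociclib at 1 µM, 202, 182 and 149.8 in atirmociclib at 2 µM and 261, 364 and 309.6 in ribociclib at 2 µM. At 72 h CDC7 held 733, 778 and 812 in vehicle, 521, 495 and 636 in AU2-94 at 1 µM, 609, 595 and 584 in AU2-94 at 2 µM, 321, 354 and 412 in atirmociclib at 1 µM, 278, 351 and 361 in atirmociclib at 2 µM and 536, 418 and 460.4 in ribociclib at 2 µM. Treated and vehicle libraries did not overlap. CDC7 ran from -2.19 to -0.88 at 24 h and -1.24 to -0.38 at 72 h, whereas DBF4 stayed within -0.91 to -0.70 and -0.71 to -0.39. The mildest CDC7 call, -0.38 with AU2-94 at 2 µM for 72 h, was lost without AU2-94 replicate 2 (limma, adjusted p = 0.0604) or 3 (0.068), or without vehicle replicate 2 (0.0619) or 3 (0.0802).

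Among the 9 genes of origin firing and the CMG helicase, CDC45 fell furthest at 24 h in 4 of the 5 treatments. With AU2-94 at 1 µM, RECQL4 stood at -1.41 and CDC45 at -1.40. CDC45 is a subunit that turns the MCM ring into the CMG helicase together with GINS, encoded on chromosome 22 from 19479457 to 19520612. At 24 h CDC45 read 716, 692 and 679.5 in vehicle, 202, 317 and 284 in AU2-94 at 1 µM, 155, 157 and 203 in AU2-94 at 2 µM, 70, 82.1 and 74.6 in atirmociclib at 1 µM, 60, 79.8 and 90.9 in atirmociclib at 2 µM and 120.0, 179 and 156 in ribociclib at 2 µM. At 72 h CDC45 read 737, 679.8 and 708 in vehicle, 381, 316 and 279 in AU2-94 at 1 µM, 368, 279.8 and 395 in AU2-94 at 2 µM, 290.2, 306 and 220.3 in atirmociclib at 1 µM, 295, 261 and 270.3 in atirmociclib at 2 µM and 378, 417 and 378 in ribociclib at 2 µM. Atirmociclib libraries at 24 h were the lowest, below every AU2-94 and ribociclib library, and at 72 h the treated groups lay closer together, all below vehicle. The 24 h fall was 2.64-fold and 4.06-fold with AU2-94, 9.12-fold and 9.07-fold with atirmociclib and 4.63-fold with ribociclib (standard error 0.18 log2 units, limma, adjusted p 1.56e-10 to 1.60e-05). At 72 h it ran from 1.81-fold with ribociclib to 2.62-fold with atirmociclib at 1 µM.

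The 4 GINS subunits, which form a single complex, did not fall alike. GINS1 ran from -2.07 to -1.09 and GINS2 from -2.50 to -1.05 at 24 h, both lower in all 5 treatments at both times. GINS3 ran from -1.11 to -0.18, with no call for AU2-94 at 1 µM (-0.18), and at 72 h from -1.04 to -0.56 with all 5 called. GINS4 was called lower in 3 treatments at 24 h (-0.83, -0.68 and -0.75 with AU2-94 at 2 µM and atirmociclib at 1 and 2 µM) and in none at 72 h. At 24 h the call with atirmociclib at 1 µM was lost without its replicate 3 (limma, adjusted p = 0.0666) or vehicle replicate 1 (0.0664). Ribociclib, at -0.52, had no call. It passed the test without ribociclib replicate 2 (0.0301) or 3 (0.0497) or vehicle replicate 3 (0.0461). It also passed with the replicate block (0.0413), with equal totals (0.0318) and with a filter on a mean of 50 (0.0454). AU2-94 at 1 µM, at -0.49, passed with only the groups compared (0.0348). At 72 h atirmociclib at 2 µM raised GINS4 by 0.36 although its libraries overlapped vehicle. That call was lost without atirmociclib replicate 1 (limma, adjusted p = 0.0641) or 3 (0.0776), or vehicle replicate 2 (0.0551) or 3 (0.143). Exons of antisense genes cover 21% of the exon bases of GINS4 and 10.9% of those of GINS3, whose reads could not be separated. In vehicle at 24 h, GINS2 held 174 ± 22.2 normalised counts per kilobase of merged exons (SD, n = 3), GINS1 169.6 ± 10.8, GINS4 123 ± 18.5 and GINS3 58.7 ± 0.33. On canonical transcript lengths GINS1 was highest at 411 ± 26.2 and GINS3 still lowest at 136 ± 0.767.

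TICRR, the human counterpart of yeast Sld3, ran from -2.63 to -1.21 at 24 h and -1.10 to -0.36 at 72 h. RECQL4, a helicase that takes part in CMG assembly, ran from -1.95 to -1.41 and from -0.80 to -0.47, and WDHD1, the adaptor that links CMG to DNA polymerase alpha, from -1.90 to -0.65 and from -1.14 to -0.48. All 3 were called lower in all 10 comparisons. TOPBP1, a firing factor that also activates the checkpoint kinase ATR, fell less, from -0.65 to -0.46 at 24 h and -0.29 to -0.04 at 72 h, where ribociclib gave no call.

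CLSPN showed the largest fall of all 52 genes at 24 h in each treatment. It lies on chromosome 1 from 35720218 to 35769978 and encodes claspin, which travels with the fork and passes the stalling signal from ATR to CHK1. At 24 h CLSPN held 1555, 1530.3 and 1498 in vehicle, 529, 482 and 510.0 in AU2-94 at 1 µM, 321, 342 and 341 in AU2-94 at 2 µM, 62, 53.5 and 81 in atirmociclib at 1 µM, 70.3, 55.8 and 53.5 in atirmociclib at 2 µM and 259.9, 205 and 257 in ribociclib at 2 µM. At 72 h CLSPN held 1431, 1527 and 1441 in vehicle, 718, 713 and 824 in AU2-94 at 1 µM, 879, 758 and 1026 in AU2-94 at 2 µM, 389, 413 and 374 in atirmociclib at 1 µM, 413, 323 and 335 in atirmociclib at 2 µM and 701, 729 and 731 in ribociclib at 2 µM. At 24 h the atirmociclib libraries held 53.5 to 81 normalised counts, below every other library, and they were also the lowest at 72 h. The fall at 24 h was 3.01-fold and 4.56-fold with AU2-94 at 1 and 2 µM, 23.3-fold and 25.3-fold with atirmociclib and 6.37-fold with ribociclib (standard error 0.14 log2 units, limma, adjusted p 1.66e-14 to 9.81e-08). At 72 h it was 1.66-fold with AU2-94 at 2 µM to 4.12-fold with atirmociclib at 2 µM (adjusted p 1.48e-11 to 3.14e-05). Its partners in fork protection fell less. TIMELESS ran from -1.34 to -0.77 and from -0.82 to -0.32 and was lower in all 10 comparisons. TIPIN was lower in 4 treatments at 24 h, from -0.53 to -0.88, and in 3 at 72 h, from -0.54 to -0.92. Its calls with AU2-94 at 2 µM, atirmociclib at 2 µM and ribociclib at 24 h did not survive every omission of a library. Nor did its call with ribociclib at 72 h.

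**Figure D2:**
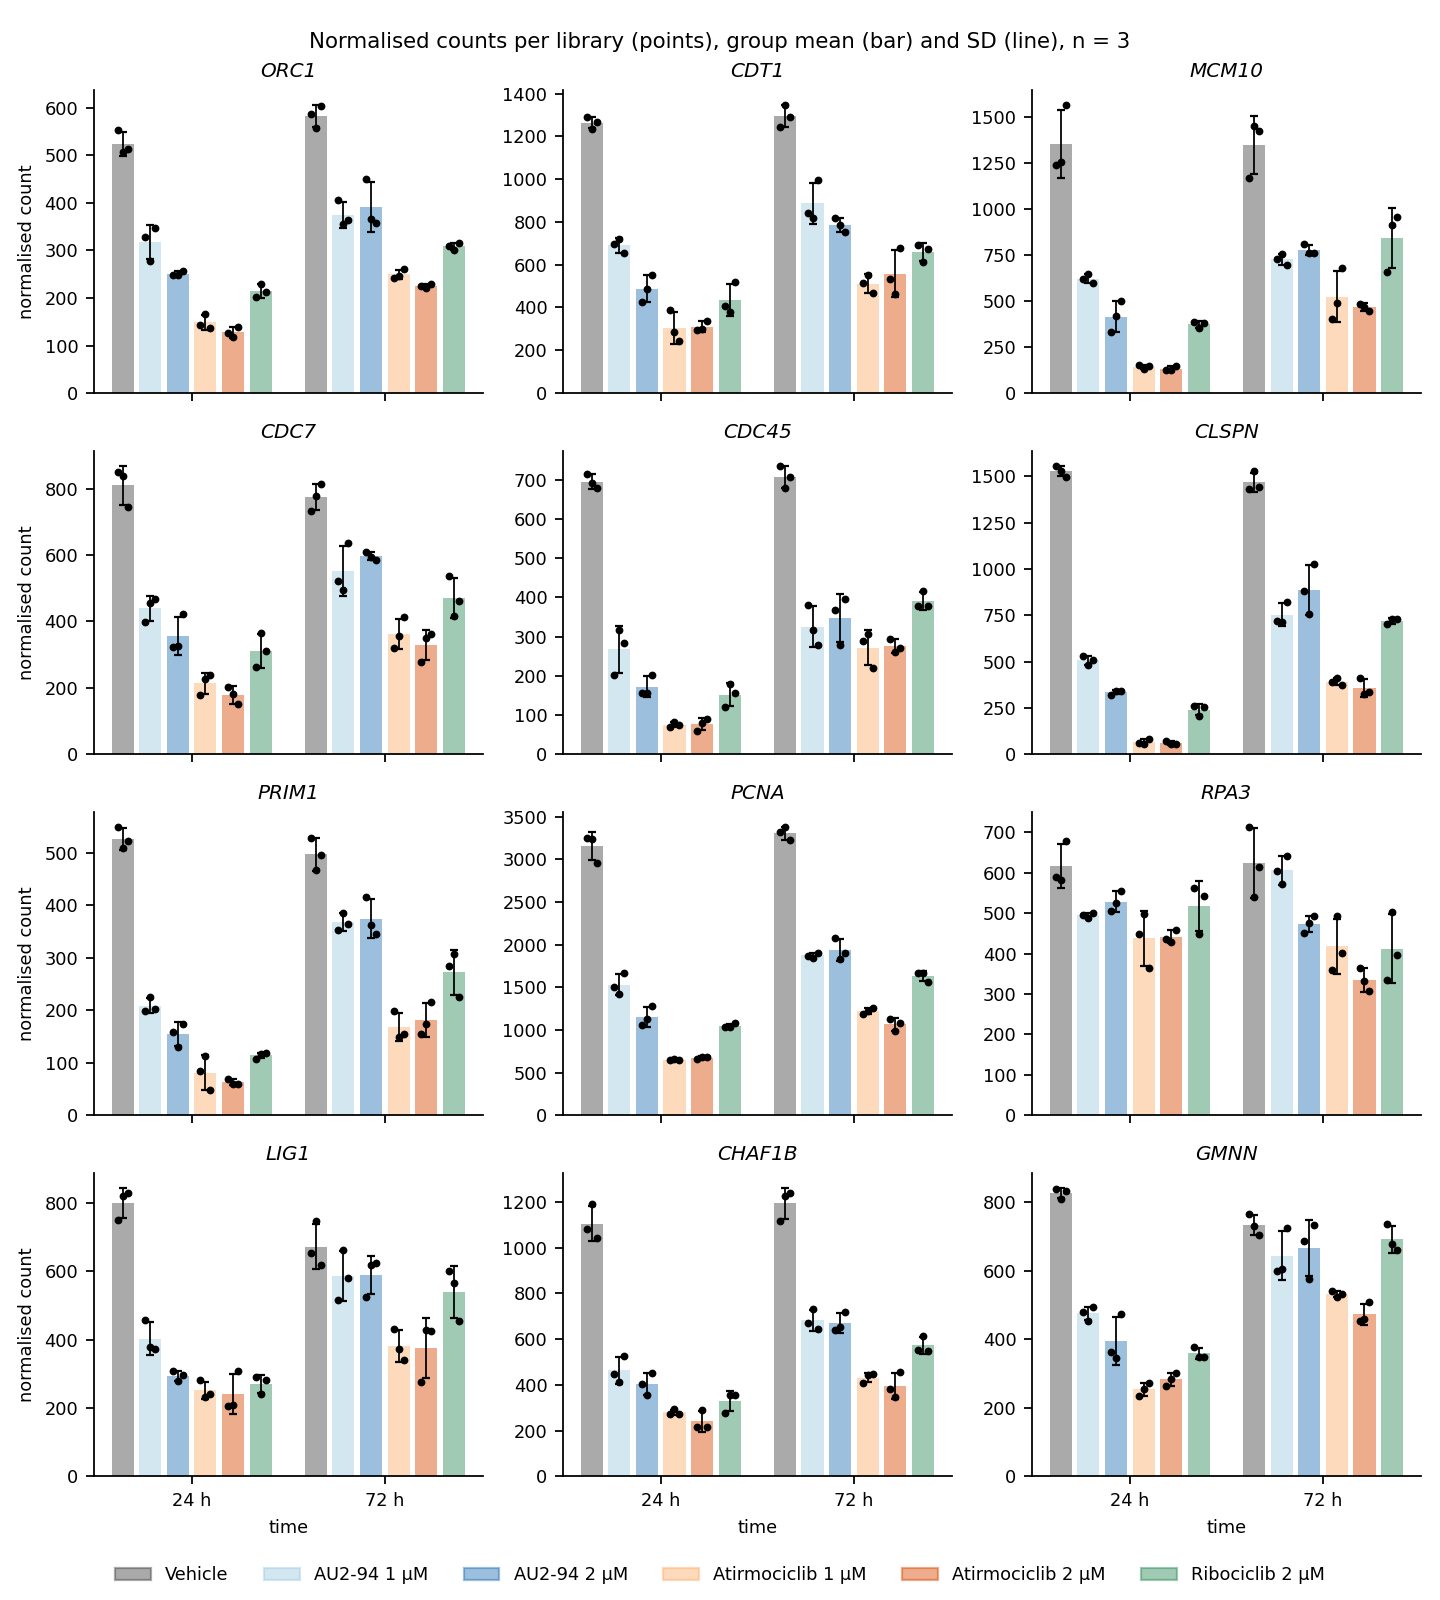
Normalised counts (vertical axis, from 0) of 12 replication genes in the 36 libraries at 24 h and 72 h; points are libraries, bars group means and lines SDs of 3 libraries. Vehicle is highest for each gene at 24 h, the atirmociclib bars are the lowest for CLSPN, MCM10 and CDC45 at 24 h, and GMNN, LIG1 and RPA3 overlap vehicle in some treatments at 72 h.

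Primase and the polymerases split within their own complexes. PRIM1, the catalytic subunit of primase, which lays the RNA primer, fell in every treatment, whereas PRIM2, the regulatory subunit that binds it, did not follow. At 24 h PRIM1 read 549, 509 and 521 in vehicle, 198, 225 and 203 in AU2-94 at 1 µM, 158, 130.3 and 174 in AU2-94 at 2 µM, 83.6, 113 and 47.2 in atirmociclib at 1 µM, 69.5, 60 and 59 in atirmociclib at 2 µM and 108, 116 and 118 in ribociclib at 2 µM. At 72 h PRIM1 read 528, 467 and 495 in vehicle, 353, 386 and 365 in AU2-94 at 1 µM, 416, 361 and 346 in AU2-94 at 2 µM, 199, 149.9 and 154 in atirmociclib at 1 µM, 154, 174 and 216 in atirmociclib at 2 µM and 284, 307 and 225 in ribociclib at 2 µM. No treated library reached vehicle at either time. The 24 h fall was 2.52-fold and 3.42-fold with AU2-94, 6.8-fold and 8.28-fold with atirmociclib and 4.59-fold with ribociclib (standard error 0.21 log2 units, limma, adjusted p 2.08e-09 to 0.000116). At 72 h AU2-94 gave -0.43 and -0.41, calls that were lost on leaving out AU2-94 1 µM replicate 1 (adjusted p = 0.0735) or 3 (0.0595), AU2-94 2 µM replicate 2 (0.0944) or 3 (0.117), or vehicle replicate 1 (0.0825 and 0.108) or 3 (0.0542 and 0.0726), against -1.57 and -1.46 with atirmociclib and -0.88 with ribociclib. PRIM2 ranged over -0.30 to 0.26 at 24 h. Its 2 calls were a fall of 0.30 with atirmociclib at 2 µM for 24 h and a rise of 0.31 with ribociclib for 72 h. The first was lost without atirmociclib replicate 1 (adjusted p = 0.139) or 2 (0.0816) or vehicle replicate 1 (0.145) or 2 (0.0967), and the second without ribociclib replicate 2 (0.0563).

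POLA1 and POLA2, the catalytic and second subunit of DNA polymerase alpha, fell in all 10 comparisons, from -1.12 to -0.51 and from -1.73 to -0.83 at 24 h. In DNA polymerase delta, the lagging-strand enzyme, the catalytic subunit POLD1 ran from -1.24 to -0.79 and POLD3 from -1.71 to -0.72 at 24 h, lower in all 5 treatments, while POLD2 stayed between -0.03 to 0.14 with a standard error of 0.04. POLD2 was called higher with atirmociclib at 2 µM for 24 h, by 0.14, and lower with AU2-94 and atirmociclib at 1 µM for 72 h, by 0.11 and 0.11. The rise was lost without atirmociclib replicate 1 (limma, adjusted p = 0.0692) or vehicle replicate 3 (0.0508), and the falls under most omissions (adjusted p up to 0.115). POLE, the catalytic subunit of the leading-strand polymerase epsilon, fell at 24 h from -0.88 to -0.68 in all 5 treatments and was called in none at 72 h (-0.16 to 0.07). Its partner POLE2 fell in 4 treatments at 24 h, from -0.88 to -1.57. At 72 h POLE2 fell with atirmociclib at 1 and 2 µM (-0.99 and -1.45). The 24 h calls of POLE2 with AU2-94 at 1 and 2 µM did not survive every omission of a library. POLE2 was the least precise member at 24 h, with a standard error of 0.29 at 24 h.

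PCNA, the sliding clamp that tethers polymerases to DNA and a common stain for proliferating cells, fell in every treatment. At 24 h PCNA held 3248, 3240.0 and 2960.3 in vehicle, 1501, 1425 and 1667 in AU2-94 at 1 µM, 1057, 1124 and 1286 in AU2-94 at 2 µM, 642, 661 and 653 in atirmociclib at 1 µM, 657, 683 and 683 in atirmociclib at 2 µM and 1033, 1029.7 and 1078 in ribociclib at 2 µM. At 72 h PCNA held 3316, 3373 and 3219.7 in vehicle, 1867, 1848 and 1903 in AU2-94 at 1 µM, 2080.3, 1833 and 1903 in AU2-94 at 2 µM, 1181, 1222 and 1258 in atirmociclib at 1 µM, 1131, 982 and 1083 in atirmociclib at 2 µM and 1662, 1666 and 1559 in ribociclib at 2 µM. No treated library overlapped vehicle, and the atirmociclib libraries were the lowest at both times. Its log2 fold change ran from -2.27 to -1.04 at 24 h (standard error 0.07, limma, adjusted p 2.80e-14 to 4.27e-09) and from -1.63 to -0.77 at 72 h (adjusted p 1.33e-13 to 2.42e-08). The clamp loader, replication factor C, fell less. RFC2, RFC4 and RFC5 were lower in all 10 comparisons, from -1.49 to -0.63 at 24 h. RFC1, the large subunit, was lower in 4 treatments at 24 h, from -0.33 to -0.64, and in 2 at 72 h, both atirmociclib. RFC3 was lower in 4 at each time, from -0.37 to -0.74 at 24 h. Its 72 h calls with AU2-94 at 1 µM, atirmociclib at 1 µM and ribociclib did not survive every omission of a library.

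The subunits of the single-strand binding complex stayed within 1 log2 unit of vehicle at both times. RPA1, its large subunit, was called in no treatment at 24 h (-0.24 to -0.05). RPA1 fell in 3 at 72 h, from -0.19 to -0.32. Its 72 h calls with AU2-94 at 1 µM and atirmociclib at 1 µM did not survive every omission of a library. RPA2 fell in 3 treatments at 24 h and 4 at 72 h, and no further than -0.57. RPA3, the small subunit, had the largest mean change of the 3. At 24 h RPA3 held 589, 583 and 679 in vehicle, 496, 488 and 501 in AU2-94 at 1 µM, 506, 525 and 555 in AU2-94 at 2 µM, 449.6, 498 and 365 in atirmociclib at 1 µM, 437, 429 and 459 in atirmociclib at 2 µM and 563, 449 and 543 in ribociclib at 2 µM. At 72 h RPA3 held 714, 541 and 615 in vehicle, 604, 572 and 643 in AU2-94 at 1 µM, 452, 475 and 493 in AU2-94 at 2 µM, 359, 492 and 402 in atirmociclib at 1 µM, 365, 332 and 307 in atirmociclib at 2 µM and 335, 504 and 396 in ribociclib at 2 µM. Treated libraries lay below vehicle at 24 h, though AU2-94 at 2 µM (-0.22) and ribociclib (-0.25) did not pass the test, and at 72 h AU2-94 at 1 µM overlapped vehicle (-0.03). The calls at 24 h were -0.31 with AU2-94 at 1 µM and -0.50 and -0.48 with atirmociclib, and at 72 h -0.39, -0.58, -0.89 and -0.61. The call with AU2-94 at 1 µM was lost without any of its replicates (limma, adjusted p 0.0682 to 0.0811) or vehicle replicate 3 (0.148), and that with AU2-94 at 2 µM for 72 h without any of its replicates (0.0633 to 0.109) or vehicle replicate 1 (0.176) or 3 (0.0794).

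Both genes of Okazaki fragment maturation fell at 24 h. FEN1, the nuclease that trims the flaps, fell in all 10 comparisons, from -1.80 to -0.75 and from -1.21 to -0.65. LIG1, the ligase that seals the nicks, fell in all 5 treatments at 24 h and only under atirmociclib at 72 h. At 24 h LIG1 read 750.2, 821 and 831 in vehicle, 459, 378 and 373 in AU2-94 at 1 µM, 309, 280.2 and 296 in AU2-94 at 2 µM, 281, 232 and 241 in atirmociclib at 1 µM, 206, 208 and 307 in atirmociclib at 2 µM and 290.1, 240.2 and 281 in ribociclib at 2 µM. At 72 h LIG1 read 653, 747 and 618 in vehicle, 515, 662 and 581 in AU2-94 at 1 µM, 525, 619 and 625 in AU2-94 at 2 µM, 431, 374 and 340.0 in atirmociclib at 1 µM, 275, 429 and 424 in atirmociclib at 2 µM and 600.3, 565 and 454 in ribociclib at 2 µM. At 24 h no treated library overlapped vehicle, and the falls ran from 1.99-fold to 3.38-fold (limma, adjusted p 1.03e-08 to 2.59e-05). At 72 h AU2-94 overlapped vehicle at both doses (-0.20 and -0.19), ribociclib stood at -0.32 without passing the test, and atirmociclib gave -0.82 and -0.86.

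The chromatin assembly factor, which deposits histones behind the fork, fell in all 10 comparisons in both subunits listed. CHAF1A ran from -1.36 to -0.71 at 24 h and -0.94 to -0.55 at 72 h. At 24 h CHAF1B held 1081, 1192 and 1044 in vehicle, 449, 414 and 528 in AU2-94 at 1 µM, 404, 354 and 452 in AU2-94 at 2 µM, 275, 293 and 272 in atirmociclib at 1 µM, 214, 292 and 215 in atirmociclib at 2 µM and 279, 355 and 357 in ribociclib at 2 µM. At 72 h CHAF1B held 1117, 1225 and 1241 in vehicle, 669, 732 and 646 in AU2-94 at 1 µM, 641, 652 and 719.6 in AU2-94 at 2 µM, 409, 441 and 447 in atirmociclib at 1 µM, 380.3, 348 and 457 in atirmociclib at 2 µM and 554, 615 and 550.3 in ribociclib at 2 µM. CHAF1B libraries did not overlap vehicle, and the fall ran from 2.39-fold to 4.63-fold at 24 h (limma, adjusted p 2.78e-10 to 1.21e-06) and from 1.75-fold to 3.03-fold at 72 h (adjusted p 1.07e-10 to 2.71e-06).

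A separate list of 32 other replication genes, covering further helicases, topoisomerases, checkpoint kinases, histone chaperones and accessory subunits, moved the same way for most of its genes. This list was also chosen with earlier results of these data known. At 24 h 19, 22, 24, 23 and 20 of the 32 were lower in the order AU2-94 1 µM, AU2-94 2 µM, atirmociclib 1 µM, atirmociclib 2 µM and ribociclib, and 1, 1, 2, 2 and 1 were higher, beside 13.5% to 16.2% of all genes tested lower and 14.3% to 18.6% higher. At 72 h 20, 17, 21, 20 and 19 were lower and 2, 1, 2, 4 and 2 higher, beside 15.3% to 19.8% of all genes lower and 14.2% to 20.9% higher. TOP2A, the topoisomerase that untangles finished chromosomes, ran from -3.44 to -1.67 at 24 h and -1.95 to -0.46 at 72 h. CHEK1, the kinase that claspin activates, ran from -3.12 to -1.22 and from -1.59 to -0.60, and DONSON, a factor of CMG assembly, from -2.84 to -1.18 and from -1.82 to -0.67; all 3 were lower in every comparison. POLD4, the small accessory subunit of DNA polymerase delta, went the other way. At 24 h POLD4 held 345, 400.4 and 412 in vehicle, 525, 545 and 497 in AU2-94 at 1 µM, 610.3, 561 and 556 in AU2-94 at 2 µM, 546, 472 and 517 in atirmociclib at 1 µM, 557, 490.0 and 462 in atirmociclib at 2 µM and 557, 609 and 584 in ribociclib at 2 µM, and every treated library lay above vehicle. Its log2 fold change was 0.38 to 0.60 at 24 h (limma, adjusted p 4.63e-05 to 0.00274), called in all 5 treatments, and 0.26 to 0.41 at 72 h, called in 4. ATR, the kinase upstream of CHEK1, was called in none at 24 h (-0.09 to 0.04) and rose in 4 at 72 h by at most 0.27.

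The compounds were compared at equal dose and time in 4 pairs at each time point, with p-values adjusted over all genes within a pair. In the authors' kinase assays, atirmociclib inhibited the other CDKs assayed more strongly than AU2-94 did. The part of this in the differences below was not tested. At 24 h atirmociclib gave lower members than AU2-94 at both doses. At 1 µM 37 members were lower (background 3.16%) and 0 higher (1.48%), with a median difference of -0.67 log2 units. At 2 µM 29 were lower (4.31%) and 1, POLD2, higher (5.12%), with a median difference of -0.40; the POLD2 call (0.18) was lost without replicate 1 of either group. CLSPN differed most, by -2.95 (95% confidence interval -3.24 to -2.66) at 1 µM and -2.47 (95% confidence interval -2.76 to -2.18) at 2 µM, followed by MCM10 at -2.11 and -1.63. Atirmociclib also gave lower members than ribociclib at 2 µM, where 22 were lower (2.81%) and 0 higher (1.83%), with CLSPN at -1.99 (95% confidence interval -2.28 to -1.70) and MCM10 at -1.49.

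Between ribociclib and AU2-94 at 2 µM for 24 h, limma called 0 members lower (background 0.0186%) and 0 higher (0.0186%). At an unadjusted p under 0.05, 6 were lower and 1 higher, a threshold at which the share over all genes was not counted. The smallest adjusted p was 0.0976. The 95% confidence intervals of all 52 differences lay within 1 log2 unit of 0, from -0.87 to 0.89, and 43 within 0.5, which bounds the differences without showing that the compounds act alike. CLSPN differed by -0.48 (95% confidence interval -0.77 to -0.19) and PRIM1 by -0.42 (95% confidence interval -0.87 to 0.02).

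At 72 h atirmociclib again gave lower members than AU2-94, 23 at 1 µM (background 3.7%) with 0 higher (4.53%), and 33 at 2 µM (8.73%) with 0 higher (11.1%). The largest differences at 2 µM were those of POLE2 at -1.39 (95% confidence interval -1.86 to -0.92), CLSPN at -1.31 (95% confidence interval -1.53 to -1.09) and PRIM1 at -1.05 (95% confidence interval -1.34 to -0.76). Against ribociclib, atirmociclib at 2 µM gave 30 members lower (4.35%) and 1, RPA1, higher (4.83%); with only these 2 groups in the fit the lower count was 16, and the RPA1 call (0.21) was lost whichever library was left out. Ribociclib against AU2-94 at 2 µM gave 2 lower (1.38%), PCNA at -0.25 and RPA1 at -0.24, and 1 higher (1.96%), PRIM2 at 0.32. These 3 calls were not stable. The lower count was 0 without AU2-94 replicate 1 or 3 or ribociclib replicate 2 or 3 and 1 without AU2-94 replicate 2 or ribociclib replicate 1, and the higher count was 0 without replicate 2 or 3 of either group.

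**Figure D3:**
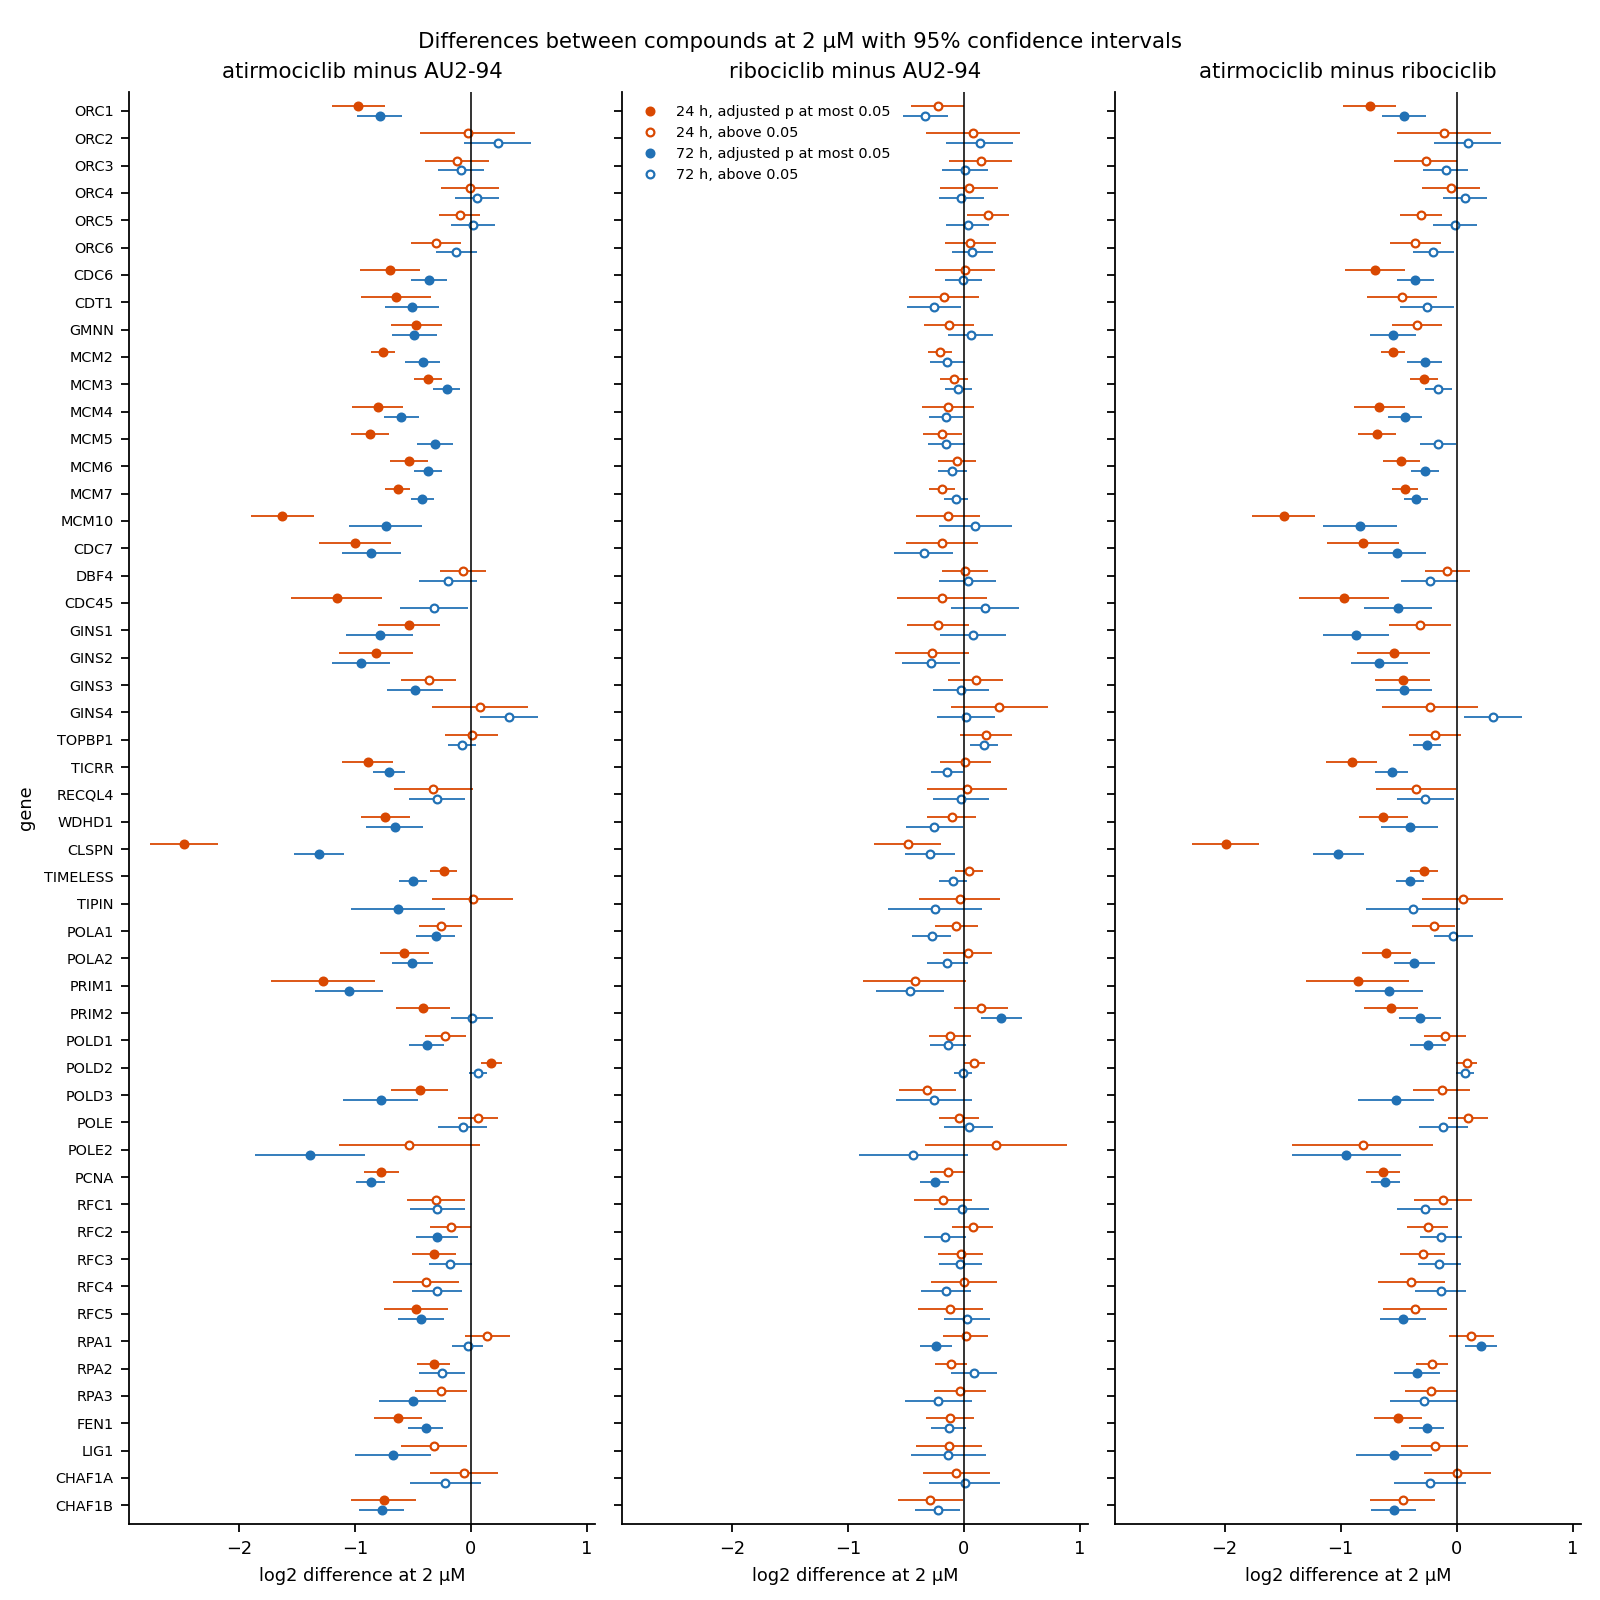
Difference in log2 level (horizontal axis) of the 52 genes (vertical axis) between compounds at 2 µM, with 95% confidence intervals, at 24 h (orange) and 72 h (blue); filled points passed an adjusted p of 0.05. Most points lie left of 0 where atirmociclib is compared with AU2-94 or ribociclib, and the middle panel, ribociclib against AU2-94, holds no filled point at 24 h and 3 at 72 h.

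Few members differed between 1 and 2 µM. With AU2-94 at 24 h 6 members were lower at 2 µM (background 0.384%) and 0 higher (0.0248%): MCM2 (-0.26), GINS3 (-0.57), TICRR (-0.52), WDHD1 (-0.51), TIMELESS (-0.28) and PCNA (-0.41). That count rested on single libraries. It was 0 without AU2-94 1 µM replicate 1 or 3 or AU2-94 2 µM replicate 1, 3 without AU2-94 1 µM replicate 2, 2 without AU2-94 2 µM replicate 2 and 13 without AU2-94 2 µM replicate 3, and 0 with only these 2 groups in the fit. Across all 52 members the median difference between the doses was -0.28. With atirmociclib at 24 h limma called 0 lower (0.0062%) and 0 higher (0.0062%), with 3 and 1 at an unadjusted p under 0.05. At 72 h AU2-94 gave 0 lower (0%) and 0 higher (0%), with 1 and 8 unadjusted, and atirmociclib 0 lower (0.936%) and 0 higher (1.25%), with 5 and 4 unadjusted and 1 adjusted higher call without atirmociclib 1 µM replicate 1. The median differences there were 0.07 and -0.04. The share of all genes at an unadjusted p under 0.05 was not counted, so the unadjusted counts stand without a background.

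The change of effect between time points was tested as the log2 fold change at 72 h less the one at 24 h. A positive value is a higher log2 fold change at 72 h, that is, a shallower fall, no fall or a rise. AU2-94 at 2 µM, both doses of atirmociclib and ribociclib each had more than 30 members with such a positive change. The counts were 31 of 52 with AU2-94 at 2 µM (background 9.26%), 33 with atirmociclib at 1 µM (11.3%), 33 at 2 µM (11.7%) and 31 with ribociclib (10.5%). AU2-94 at 1 µM, which had the shallowest falls at 24 h, gave 12 (10.1%). The median changes were 0.22 and 0.52 with AU2-94 at 1 and 2 µM, 0.54 and 0.59 with atirmociclib and 0.50 with ribociclib. In the 4 treatments other than AU2-94 at 1 µM, CLSPN changed most, by 1.45 ± 0.17 log2 units (standard error) with AU2-94 at 2 µM, 2.64 ± 0.17 and 2.62 ± 0.17 with atirmociclib and 1.65 ± 0.17 with ribociclib. With AU2-94 at 1 µM the largest change was that of RECQL4, at 0.94 ± 0.21. POLE and LIG1 changed in all 5 treatments, POLE by 0.68 to 0.95 and LIG1 by 0.79 to 1.25. These values include the shift of vehicle itself from 24 h to 72 h, -0.33 for POLE and -0.25 for LIG1.

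The opposite change, to a lower value at 72 h, was called for 3 members with AU2-94 at 1 µM (background 11.5%), CDC6 (-0.47), MCM6 (-0.32) and RPA2 (-0.33), for 0 with AU2-94 at 2 µM (9.28%), for 1 with atirmociclib at 1 µM (10.6%) and 1 at 2 µM (9.96%), POLD2 in both (-0.20 and -0.15), and for 1 with ribociclib (9.66%), ORC4 (-0.44). Without vehicle 72 h replicate 2 the count with AU2-94 at 1 µM was 1. The call with atirmociclib at 2 µM was lost without 9 of its 12 libraries, all but atirmociclib 24 h replicate 3, vehicle 24 h replicate 2 and atirmociclib 72 h replicate 1, and the ribociclib call without ribociclib 24 h replicate 1 or 2, ribociclib 72 h replicate 3 or vehicle 72 h replicate 2 or 3. With AU2-94 at 2 µM the count was 1 without vehicle 24 h replicate 1. Between the time points vehicle itself had 1 member lower at 72 h (background 3.64%) and 0 higher (3.85%). The exception was POLE, lower by 0.33 log2 units in vehicle at 72 h (limma, adjusted p = 0.0279), from 2435, 2635 and 2573 at 24 h to 2217, 2101 and 1777 normalised counts. This call was lost without vehicle 24 h replicate 2 or 3 or vehicle 72 h replicate 3.

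**Figure D4:**
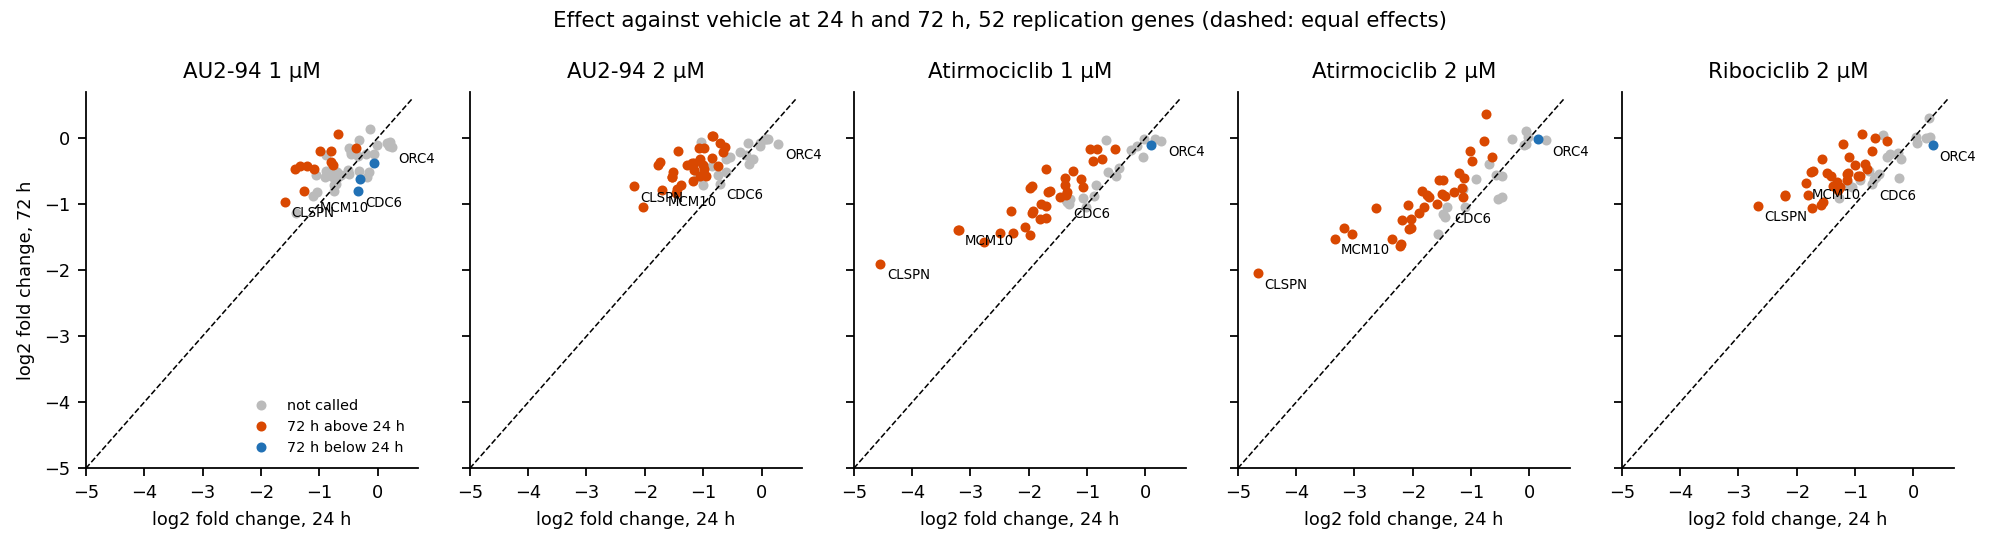
Log2 fold change against vehicle at 72 h (vertical axis) and at 24 h (horizontal axis) for the 52 genes in each of the 5 treatments; orange points have a higher value at 72 h than at 24 h by the test of that difference, blue points a lower one, and the dashed line marks equal effects. Most points lie above the line, CLSPN furthest from it under atirmociclib.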

How the data were processed

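Total RNA of 36 LNCaP libraries was sequenced as paired reads by the authors. They aligned reads to GRCh38 with STAR 2.6.1d inside the nf-core/rnaseq pipeline and used DESeq2, per the methods and the submitters' processing notes. The annotation release, read counter and strand setting are not given in the sources used here. The deposited values are a signal: counts per gene that the authors normalised between libraries. They were not whole reads (between 18.5% and 48.5% of low values per library were whole multiples of the smallest step, within 0.01 of a step), so no count model was run and read depth is unknown. Totals of normalised counts are not depths.

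Gene identifiers were named with GENCODE release 44, which named 29856 of 29872 genes. Values were analysed as log2(value + 1), so fold changes of low genes are understated. Genes with at least 10 normalised counts in at least 3 libraries of a fit were kept, 16137 at 24 h and 16341 at 72 h for the 6 groups of a time point and 16850 for all 36 libraries, which gave the tests between time points. limma 3.58.1 in R 4.3.3 was run with lmFit and eBayes with a trend, and p-values were adjusted by Benjamini-Hochberg over all genes of a comparison. The fit was tested on simulated data. These were whole counts with planted changes larger than many of those called here, so recovery of smaller changes was not tested. Folds are 2 to the power of the fitted log2 difference. The methods call the replicates biological; all are cultures of 1 cell line, so p-values measure the spread between these libraries.

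The members and gene lists were chosen with earlier results of these data known. Values of every library are given for the member of each step with the largest mean change over the 5 treatments at 24 h, for PCNA, GMNN, CDT1 and ORC1, and for members called higher in at least 3 treatments of a time point, of which there were none; the rest are given by range and count. Of 32 other replication genes, the 3 with the largest mean change and those called higher in at least 3 treatments are named. Over all genes kept, replicate numbers, which the labels give as batches, did not pair the libraries. Deviations of same-numbered libraries correlated at a mean of 0.0018 (-0.09 to 0.11) at 24 h and -0.0022 (-0.08 to 0.05) at 72 h over 45 pairs. This does not exclude a shift limited to the members. At 24 h their median fall was shallowest within replicate 3 in every treatment. All treatments share vehicle replicate 3 there, so they are not independent. Alternatives were another filter or none, equal totals, quantile normalisation, another pseudocount, no trend, the replicate block, only the groups compared and leaving out each library. The length of the canonical transcript was added after seeing the data. Promoters came from RefSeq (GRCh38.p14), and protein sequences were not analysed here. Some of the luminal markers are not reported here.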

Additional observations from a re-analysis of the deposited data

Results flagged for a closer look

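The effect of each treatment differed between the 2 time points for the following members, by limma's test of the effect at 72 h minus the effect at 24 h, in log2 units. With AU2-94 at 1 µM 3 members had a lower value at 72 h (background 11.5%) and 12 a higher one (10.1%). With AU2-94 at 2 µM 0 had a lower (9.28%) and 31 a higher one (9.26%). With atirmociclib 1 had a lower (10.6% at 1 µM, 9.96% at 2 µM) and 33 a higher one (11.3% and 11.7%) at either dose. With ribociclib 1 had a lower (9.66%) and 31 a higher one (10.5%). The lower counts, 5.77% and 1.92% of the members where any was called, lay below these shares.

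With AU2-94 at 1 µM the differences singled out were those of CDC6 (-0.47), MCM6 (-0.32) and RPA2 (-0.33). With AU2-94 at 2 µM they were those of TICRR (1.38), RECQL4 (1.00), CLSPN (1.45), PRIM1 (1.36) and LIG1 (1.25). Under atirmociclib at 1 µM they were GMNN (1.24), MCM4 (1.21), MCM10 (1.83), CDC45 (1.80), GINS2 (1.06), TICRR (1.21), RECQL4 (1.23), CLSPN (2.64), PRIM1 (1.19) and POLD2 (-0.20). Under atirmociclib at 2 µM they were MCM4 (1.06), MCM10 (1.82), CDC45 (1.82), GINS4 (1.11), TICRR (1.56), RECQL4 (1.03), CLSPN (2.62), PRIM1 (1.59) and POLD2 (-0.15). With ribociclib they were ORC4 (-0.44), GMNN (1.12), MCM10 (1.16), CDC45 (1.35), GINS1 (1.24), TICRR (1.22), CLSPN (1.65), PRIM1 (1.32) and LIG1 (1.24). These members were a change of at least 1 log2 unit or a lower value at 72 h among those past the test. The lower values were not stable. With equal totals the lower count was 0 for AU2-94 at 1 µM and for ribociclib. The POLD2 call with atirmociclib was lost with quantile normalisation at both doses, and at 2 µM also without 9 of the libraries in turn. Leaving out single libraries lost the ORC4 call with ribociclib in 5 cases. Each difference also holds any shift of vehicle from 24 h to 72 h, which was -0.46 for GINS4 and -0.25 for LIG1, neither past the test. Seeding density differed with time, and its part cannot be told apart.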

How the results depend on the processing

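Over 520 gene comparisons with vehicle and 7800 repeats under other settings, 0 changed direction with a call, 166 lost and 63 gained a call. The counts of lower members against vehicle stayed within 1.5 times under every alternative run. Small counts moved. Read depth is unknown, and the cause of each move below was not tested.

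With no filter, ribociclib at 24 h had 1 higher member, ribociclib against AU2-94 at 72 h 1 lower and 0 higher, atirmociclib against ribociclib at 72 h 0 higher, and the time tests of atirmociclib at 2 µM and ribociclib 0 lower. With equal totals, higher members were 0 with atirmociclib at 2 µM at 24 h and at 72 h and 1 with ribociclib at 24 h; medians were -1.50 (atirmociclib 2 µM) and -1.04 (ribociclib) at 24 h and -0.46 (AU2-94 1 µM), -0.85 and -0.95 (atirmociclib 1 and 2 µM) at 72 h; ribociclib against AU2-94 at 72 h gave 4 lower and 0 higher, atirmociclib against ribociclib 0 higher, and 2 against 1 µM of atirmociclib 1 lower; time tests gave 0 lower for AU2-94 at 1 µM and ribociclib, and 2 for vehicle. With quantile normalisation, 1 member was higher with AU2-94 at 1 and 2 µM and atirmociclib at 1 µM at 24 h; medians were -1.33 (atirmociclib 2 µM, 24 h) and, at 72 h, -0.45 and -0.35 (AU2-94 1 and 2 µM) and -0.76 and -0.81 (atirmociclib); at 72 h atirmociclib at 2 µM had 1 higher against AU2-94 and 0 against ribociclib, and its time tests 0 lower at both doses.

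Without a trend, ribociclib at 24 h had 1 higher, 2 against 1 µM of AU2-94 2 lower, ribociclib against AU2-94 at 72 h 0 and 0, atirmociclib against ribociclib 0 higher and the time test of atirmociclib at 2 µM 0 lower. With only the groups compared, ribociclib at 24 h had 1 higher, atirmociclib against AU2-94 at 2 µM 0 higher at 24 h and 1 at 72 h, 2 against 1 µM of AU2-94 0 lower, atirmociclib at 2 µM for 72 h 0 higher, ribociclib against AU2-94 0 and 0, atirmociclib against ribociclib 16 lower and 0 higher, and vehicle over time 0 lower.

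With the replicate block, ribociclib at 24 h had 1 higher member (ORC4 lost its call), atirmociclib against AU2-94 at 2 µM for 72 h 1 higher, ribociclib against AU2-94 at 72 h 1 lower, and the time test of atirmociclib at 2 µM 0 lower; no other count moved by over 1.5 times under the block.

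Leaving out 1 library in turn, the higher members at 24 h ranged from 0 to 1 with AU2-94 at either dose and atirmociclib at 1 µM, 0 to 2 with atirmociclib at 2 µM and 0 to 3 with ribociclib, and at 72 h from 0 to 1 with atirmociclib at 2 µM and ribociclib. Members past 1 log2 unit at 72 h ranged from 1 to 2 and 0 to 1 with AU2-94 at 1 and 2 µM. Medians ranged from -1.44 to -1.34 (atirmociclib 2 µM, 24 h), and at 72 h from -0.49 to -0.45 (AU2-94 1 µM), -0.83 to -0.75 and -0.88 to -0.81 (atirmociclib 1 and 2 µM). Between treatments, 2 against 1 µM of AU2-94 at 24 h ranged from 0 to 13 lower, atirmociclib against AU2-94 at 2 µM for 24 h from 0 to 1 higher, ribociclib against AU2-94 at 72 h from 0 to 1 lower and 0 to 1 higher, 2 against 1 µM of atirmociclib at 72 h from 0 to 1 higher, and atirmociclib against ribociclib at 72 h stayed at 0 higher. Time tests ranged from 1 to 4 lower (AU2-94 1 µM), and 0 to 1 for AU2-94 and atirmociclib at 2 µM, ribociclib and vehicle.

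On canonical transcript lengths, normalised counts per kilobase in vehicle at 24 h were 983 (MCM2), 817 (MCM3), 1296 (MCM4), 611 (MCM5), 483 (MCM6), 1967 (MCM7), 411 (GINS1), 214 (GINS2), 136 (GINS3) and 178 (GINS4). The shorter E2F core matched 18 members in place of 11.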
